A study of Homo sapiens with 8 samples.

Results

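Transcripts of 10 secreted inflammatory signals were followed in PC3 cells with and without the hairpin against IER5L. They are the CXC chemokines CXCL1, CXCL2, CXCL3, CXCL5 and CXCL8, the CC chemokine CCL2, the gp130 cytokines IL6, IL11 and LIF, and the interleukin 1 family cytokine IL1A. They were listed by name, without a threshold on their values, but with earlier results of these data known. The table has 58051 genes, and 7 of the 10 were among the 16959 genes with enough counts to be tested. LIF and CXCL8 carried nearly all of the signal, the remaining 8 genes were low or at 0, and none of the 7 tested genes passed an adjusted p of 0.05 between the conditions. Of 84 tested genes from 6 lists of their receptors and pathways, 2 rose, IL1RAP and OSMR, which is 2.38% beside 2.46% of all genes tested.

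PC3 is an established human prostate cancer cell line. All 8 samples were transduced with a lentivirus carrying a short hairpin: 4 received a scrambled hairpin (shScramble) and 4 a hairpin against IER5L called sh2 (shIER5L). The study states that transduced cells were selected with puromycin, and the 4 shIER5L samples have 1 hairpin in common, so an effect of silencing IER5L and an effect of that hairpin sequence cannot be told apart. The replicates are labelled as biological, while the methods describe 4 plates per condition, so p-values measure the spread between these plates. The culture was not stimulated as far as the labels and methods say, and the values are steady-state RNA. Secreted protein was not measured here.

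CXC chemokines with a glutamate-leucine-arginine motif, the group that CXCL1, CXCL2, CXCL3, CXCL5 and CXCL8 belong to, draw neutrophils through the receptors CXCR1 and CXCR2. CCL2 draws monocytes through CCR2. IL6, IL11 and LIF each bind a receptor of their own that pairs with the shared subunit gp130 (encoded by IL6ST) and signals through JAK kinases to STAT3, whereas IL1A engages IL1R1 with its partner IL1RAP and activates NF-kB. Many genes of these families are textbook NF-kB and AP-1 targets, and their mRNAs tend to be short-lived because AU-rich elements in the 3′ untranslated region recruit decay factors.

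IER5L itself had 4.82 ± 1.51 CPM (counts in each 1000000 of the TMM-scaled library total, SD, n = 4) in shScramble and 2.28 ± 0.760 CPM in shIER5L. The values of the conditions did not overlap, and the log2 fold change was -1.08 (SE 0.248, edgeR adjusted p = 0.0212). The adjusted p was 0.0937 without shScramble replicate 2, 0.0780 without shScramble replicate 3 and 0.0891 without shIER5L replicate 3, at log2 fold changes of -0.90, -0.995 and -1.03. Total counts per sample ran from 21512128 to 24662190. The epithelial keratins KRT19 and KRT18 were abundant, at 481 and 399 CPM in shScramble, and the 5 epithelial markers summed to between 936 and 1014 CPM in shScramble and between 897 and 1060 CPM in shIER5L. The 8 leukocyte markers summed to 2.55 to 3.47 CPM in shScramble and 2.02 to 2.51 CPM in shIER5L, with CD3E at 0 and PTPRC at no more than 4 counts, and LYZ and CSF1R gave most of that sum. These ranges did not overlap, and their part in the values of the members was not tested. The 8 stromal and endothelial markers summed to 10.5 to 12.1 CPM in shScramble and 9.61 to 12.1 CPM in shIER5L, of which PECAM1 had 9.55 and 8.52 CPM and LUM 0.636 and 0.844 CPM on average.

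The sequences before the start sites of the chemokine genes are shown first, because genes with similar promoters were found at different levels in PC3. RefSeq promoter windows (GRCh38.p14) reached 250 bases before to 50 bases after the start site and were given for 8 of the 10 genes, all but CCL2 and LIF. The 5 CXC genes lie together on chromosome 4. The stretches below run 5′ to 3′ on the gene's strand from 150 bases before the start site to 10 bases from it, and capitals mark matches on either strand to the degenerate 10-letter NF-kB motif, the AP-1 motif TGANTCA or the TATA box motif TATAAA. Where 2 matches to the NF-kB motif overlap by all but 1 letter, they appear as 1 run of 11 capitals.
CXCL1, chr4:73869243-73869402, plus strand: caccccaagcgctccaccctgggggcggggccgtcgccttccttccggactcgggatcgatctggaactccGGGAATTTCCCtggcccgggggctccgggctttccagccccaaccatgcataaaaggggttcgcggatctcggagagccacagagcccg
CXCL2, chr4:74099186-74099345, minus strand: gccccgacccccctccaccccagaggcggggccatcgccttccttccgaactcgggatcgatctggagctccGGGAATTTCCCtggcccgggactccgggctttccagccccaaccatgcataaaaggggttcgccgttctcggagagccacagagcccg
CXCL3, chr4:74038680-74038839, minus strand: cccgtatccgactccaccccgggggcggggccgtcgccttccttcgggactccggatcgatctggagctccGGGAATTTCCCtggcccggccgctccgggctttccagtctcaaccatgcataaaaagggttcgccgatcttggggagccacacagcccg
CXCL5, chr4:73998668-73998827, minus strand: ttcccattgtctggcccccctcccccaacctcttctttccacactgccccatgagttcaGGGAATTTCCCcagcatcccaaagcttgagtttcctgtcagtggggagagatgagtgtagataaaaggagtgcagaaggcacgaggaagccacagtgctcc
CXCL8, chr4:73740419-73740578, plus strand: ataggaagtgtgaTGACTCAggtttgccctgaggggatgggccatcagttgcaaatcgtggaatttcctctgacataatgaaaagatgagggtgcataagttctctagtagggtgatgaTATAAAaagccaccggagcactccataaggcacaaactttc
IL6, chr7:22727050-22727209, plus strand: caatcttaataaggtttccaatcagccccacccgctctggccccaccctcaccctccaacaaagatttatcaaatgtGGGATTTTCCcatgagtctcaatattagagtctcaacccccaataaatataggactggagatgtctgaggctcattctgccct

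The NF-kB motif was found in 5 of the 8 windows, those of CXCL1, CXCL2, CXCL3, CXCL5 and IL6, against 5.91% of all 35116 promoter windows of the same length. Its first base lay 79 bases before the start site in CXCL1 and CXCL3, 78 in CXCL2, 91 in CXCL5 and 73 in IL6. In the 4 CXC genes the match is the same 11 letters, GGGAATTTCCC. The CXCL8 window held none at this spelling, but held the inner 9 letters GGAATTTCC 91 bases before its start site, a word searched after the sequences were seen, which was in 5 of the 8 windows and in 0.461% of all windows. The AP-1 motif was in 3 of 8 windows, 137 bases before the start site in CXCL8, 96 in IL11, and in both RefSeq start sites of IL1A, against 7.71% of all windows. TATAAA lay 31 bases before the start site in CXCL8 and 239 bases before 1 of the RefSeq start sites of IL1A, and 11.5% of all windows held it. Many genes of these families are already known as NF-kB and AP-1 targets, so the counts beside all windows are a description. The 4 CXC matches lie in related genes and are not independent of each other. These matches describe letters, and binding was not measured.

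The 3′ untranslated regions of the members were searched for AU-rich elements, for which these gene families are already known, so the counts are a description. In the longest annotated 3′ untranslated region (GENCODE v44), the pentamer ATTTA, the core of AU-rich elements, occurred in 10 of 10 members, between 2 and 11 times each, against 76.3% of 12701 genes tested. It occurred at least 3 times in 9 of the 10, against 50.9% of those genes. Per kilobase it reached 13.99 in IL6 and 13.97 in CXCL2 and was lowest in LIF at 2.19, against a median of 1.79 over the genes. The stretches below, with ATTTA in capitals, are for each gene the 30 bases of this region that hold the most ATTTA (hg38 coordinates). They do not show the density over the whole region, which for LIF was 7 in 3198 bases. They are given for CXCL8 and LIF, the most abundant members, for CXCL2 with its uninterrupted repeat, and for IL6.
CXCL8, chr4:73743108-73743137, plus strand: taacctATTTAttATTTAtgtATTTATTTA
LIF, chr22:30240522-30240551, minus strand: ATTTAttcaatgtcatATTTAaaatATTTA
CXCL2, chr4:74097590-74097619, minus strand: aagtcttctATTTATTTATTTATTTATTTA
IL6, chr7:22731697-22731726, plus strand: ttttaattatttttaATTTAttaatATTTA

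Words of the hairpin were searched in the members, since all shIER5L samples carry it. The study's listed sh2 sequence follows, with capitals where the overlapping words ACATCTC and CATCTCA lie. Its letters TCTCAAA would pair with bases 2 to 8, the seed, of a guide that is the exact reverse complement of sh2.
sh2 IER5L: gacgcgtccaACATCTCAaac
The word TCTCAAA was found in the longest 3′ untranslated region of 2 of the 10 members, IL11 and LIF, 1 time in each, against 28.4% of the 12701 genes. Of the receptor genes described later, only IL1RAP, OSMR and IL6ST were searched, and IL1RAP and OSMR are the genes called there. TCTCAAA was found 2 times in IL1RAP and 1 time each in OSMR and IL6ST, in regions of 3143, 2197 and 5987 bases. LIFR, IL6R, IL11RA and IL1R1 were not searched, so these hits cannot be set against receptor genes that did not change. The words CATCTCA and ACATCTC, which start further inside the hairpin and share letters with TCTCAAA, were in 0 of the 10 members. Either was in 24.0% of the genes. Of the same receptor genes, IL1RAP held CATCTCA 2 times and ACATCTC 1 time, IL6ST held ACATCTC 1 time, and OSMR held neither. A word is a description, and pairing was not measured.

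Levels were compared between genes per kilobase of exon, as RPKM (CPM divided by the exon length in the table). In shScramble the order of mean RPKM was LIF at 13.7 ± 1.23, CXCL8 at 10.1 ± 1.05, IL11 at 1.01 ± 0.162, CXCL1 at 0.555 ± 0.274, IL1A at 0.553 ± 0.139, CXCL2 at 0.439 ± 0.135, CCL2 at 0.354 ± 0.0870, IL6 at 0.173 ± 0.159, CXCL3 at 0.131 ± 0.0929 and CXCL5 at 0 (SD, n = 4). LIF and CXCL8 were above the median of the genes tested, 3.17 RPKM, with 77.6% and 71.9% of those genes below them. IL11 was above 27.9% of them and IL6 above 4.39%. The ranges of LIF, CXCL8 and IL11 did not overlap, and from IL11 down to CXCL3 each gene's range overlapped that of its neighbour in the order. The 10 genes held the same places when RPKM were computed from total counts without TMM factors.

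In shIER5L the order began again with LIF at 15.6 ± 2.03, CXCL8 at 9.38 ± 2.36 and IL11 at 1.09 ± 0.255 RPKM, followed by IL1A at 0.487 ± 0.184. IL11 stayed clear of IL1A in range, and below IL1A the neighbouring ranges of CCL2, CXCL2, CXCL1, CXCL3 and IL6 overlapped. LIF and CXCL8 together made up between 86.8% and 90.4% of the members' summed RPKM in the 8 samples. The ratio of LIF to CXCL8 in RPKM ran from 1.23 to 1.44 in shScramble and from 1.03 to 2.41 in shIER5L, where the sample with the most CXCL8 was also the one with the least LIF.

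**Figure D1:**
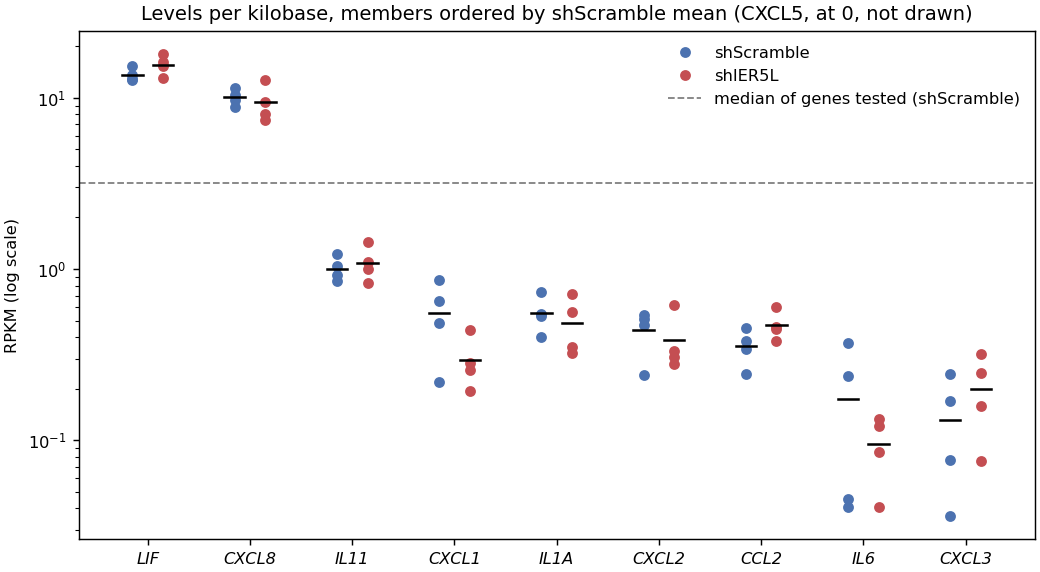
Level of 9 of the 10 members in RPKM (log axis) for each shScramble and shIER5L sample, with black lines at the means and a dashed line at the shScramble median of the genes tested, 3.17 RPKM. LIF and CXCL8 lie above the dashed line in all 8 samples and the other members below it, and CXCL5, at 0 throughout, cannot be drawn on a log axis.

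None of the 7 tested members passed edgeR's quasi-likelihood test at an adjusted p of 0.05, against 3.93% of all genes tested in either direction, 2.46% higher and 1.46% lower in shIER5L. None was a differentially expressed gene (DEG, an adjusted p under 0.05 with a log2 fold change of at least 0.5 in size), against 0.79% of all genes. CXCL1 and LIF, 2 of the 7, had an unadjusted p under 0.05, against 16.5% of all genes, and limma voom and the edgeR likelihood ratio test each called 0 of the 7. DESeq2 called 0 of the 3 members to which it gave an adjusted p, CXCL8, IL11 and LIF. No member had conditions whose samples did not overlap, against 10.9% of all genes. Of the 7 fold changes 3 were above 0 and 4 below, and their median was -0.11 on the log2 scale beside 0.00206 over all genes tested. With 7 genes, a count of 0 at these background shares is no result about the group. What bounds the members is the interval of each gene.

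LIF, a gp130 cytokine known for keeping stem cells undifferentiated and for wasting of fat and muscle in cancer, was the most abundant member (chr22:30240447-30246851). Its CPM in the shScramble samples were 50.9, 50.7, 61.1 and 54.1, and in the shIER5L samples 64.6, 71.2, 60.6 and 51.9. The shIER5L values spanned nearly the whole shScramble range and went beyond it in 2 samples, so the conditions overlapped. The means were 54.2 ± 4.87 and 62.1 ± 8.06 CPM, a log2 difference of 0.20 (SE 0.0862, 95% interval 0.01 to 0.38) with an unadjusted p of 0.0382 and an edgeR adjusted p of 0.265. On the linear scale the ratio was 1.14, with an interval of 1.01 to 1.30. Exons of LIF overlap the antisense genes LIF-AS1 and LIF-AS2, which had at most 5 and 14 counts in a sample, and the counting used no strand.

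CXCL8, or interleukin 8, the main neutrophil chemokine of human epithelia, followed (chr4:73740506-73743716). Its shScramble samples had 20.2, 23.6, 25.8 and 22.1 CPM and its shIER5L samples 18.2, 16.9, 21.4 and 28.9 CPM. Of the latter, 2 lay below every shScramble sample and 1 above them all. The means were 22.9 ± 2.38 and 21.3 ± 5.36 CPM, with a log2 fold change of -0.11 (SE 0.136, 95% interval -0.39 to 0.18, edgeR adjusted p = 0.775). The ratio was 0.929, with an interval of 0.761 to 1.13.

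Among the other CXC chemokines, CXCL1 had the largest difference of the members, at counts low enough for a few reads to matter. The shScramble samples held 6, 20, 28 and 14 counts and the shIER5L samples 13, 6, 8 and 8. The lowest shScramble sample stood among the shIER5L samples, and the other 3 were above all of them. Means were 0.720 ± 0.355 and 0.381 ± 0.137 CPM, and the log2 fold change was -0.93 (SE 0.426, 95% interval -1.84 to -0.03) with an unadjusted p of 0.0443 and an edgeR adjusted p of 0.285.

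CXCL2, the closest relative of CXCL1, held 15, 18, 9 and 18 counts in shScramble and 21, 10, 12 and 10 in shIER5L, and the conditions overlapped fully (log2 fold change -0.19, SE 0.373, edgeR adjusted p = 0.868). CXCL3 held 8, 4, 2 and 12 counts in shScramble and 8, 4, 17 and 12 in shIER5L. It did not pass the filter on low counts and was compared on CPM, 0.291 ± 0.206 against 0.444 ± 0.234, with a two-sided exact permutation test (p = 0.4, where 4 against 4 samples can reach 0.0286). CXCL1, CXCL2 and CXCL3 are near-identical copies in parts: 4.57% of the exonic words of 50 bases in CXCL1, 13.4% in CXCL2 and 6.01% in CXCL3 recur in another gene of the family, so reads there may have been dropped or misplaced, and their levels are uncertain to that extent.

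CXCL5 had 0 counts in all 8 samples. A floor of 3 counts corresponds to 0.120 to 0.141 CPM in these libraries, which covers counting error only. It takes counts as independent, and since independent fragments are fewer than counts, the floor may be higher. Its exons share 0% of such words with the other family members compared, which include CXCL6, and CXCL6, whose promoter also carries the 11 letters GGGAATTTCCC, had between 36 and 68 counts per sample. Of the family members compared that carry these 11 letters, CXCL5 had 0 counts per sample, CXCL3 2 to 17, CXCL1 6 to 28, CXCL2 9 to 21 and CXCL6 36 to 68. The letters began 79 bases before the start site in CXCL1 and CXCL3, 78 in CXCL2, 91 in CXCL5 and 90 in CXCL6. These counts are not divided by exon length, and the part of the motif in the levels was not tested.

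CCL2, the monocyte chemokine, was among the low members. Its shScramble samples had 16, 16, 12 and 20 counts and its shIER5L samples 20, 18, 22 and 26, and 2 of the latter lay within the shScramble range of CPM. The means were 0.702 ± 0.173 and 0.935 ± 0.182 CPM, with a log2 fold change of 0.42 (SE 0.298, 95% interval -0.22 to 1.05, edgeR adjusted p = 0.544).

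Of the remaining gp130 cytokines, IL11, known for its part in bone metastasis and fibrosis, had 48, 58, 81 and 62 counts in shScramble and 50, 64, 92 and 64 in shIER5L. Each condition covered about the same range, at 2.69 ± 0.433 and 2.91 ± 0.680 CPM, with a log2 fold change of 0.11 (SE 0.192, 95% interval -0.29 to 0.52, edgeR adjusted p = 0.838). IL6, the prototype of the family, held 2, 2, 19 and 11 counts in shScramble and 4, 2, 6 and 6 in shIER5L. The shScramble samples were split between 2 counts and more than 10, and the mean of 0.359 CPM had an SD of 0.330. Against 0.196 ± 0.0854 CPM in shIER5L, the two-sided exact permutation test gave p = 0.4, and IL6 did not pass the filter on low counts. Its antisense neighbour IL6-AS1, with overlapping exons, had at most 5 counts.

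IL1A, an alarmin that signals when released from damaged cells, had 18, 37, 28 and 26 counts in shScramble and 27, 36, 18 and 15 in shIER5L. Both conditions ran over nearly the same range, and the means of 1.18 ± 0.295 and 1.03 ± 0.390 CPM gave a log2 fold change of -0.19 (SE 0.304, 95% interval -0.83 to 0.46, edgeR adjusted p = 0.835).

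**Figure D2:**
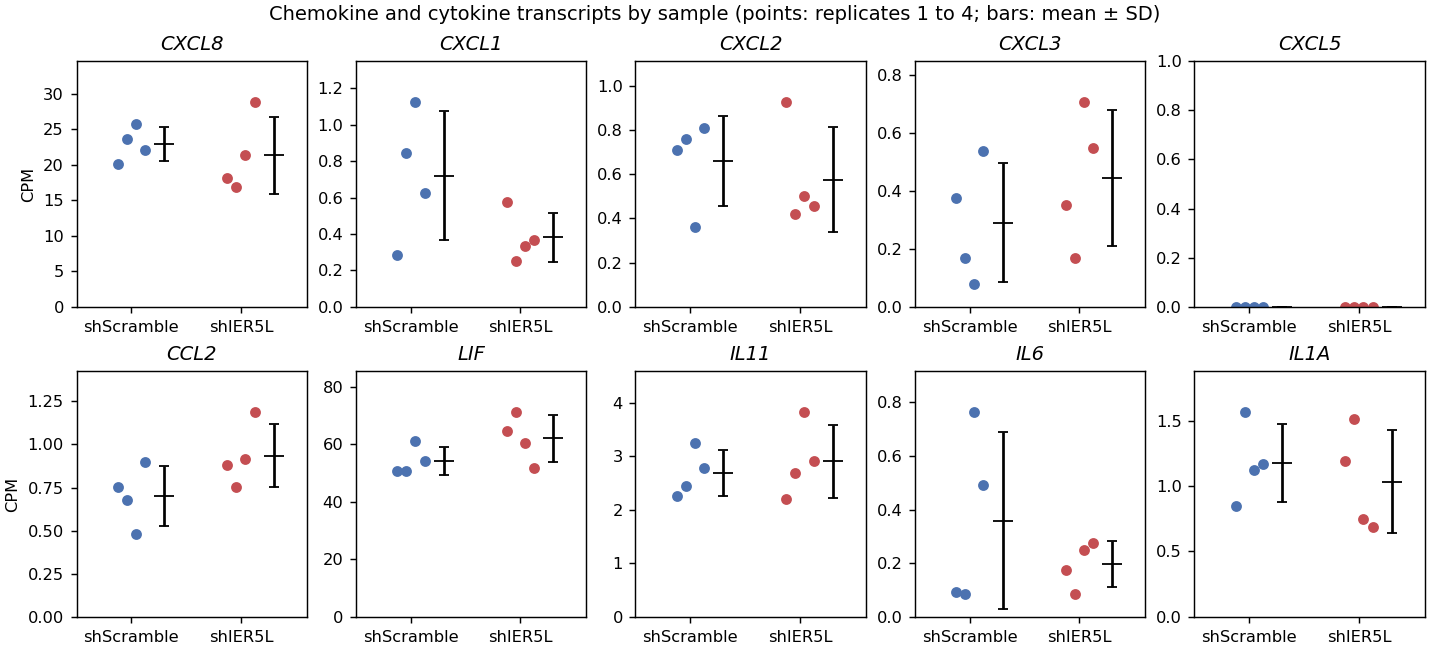
CPM of each member in the 4 shScramble (blue) and 4 shIER5L (red) samples, each panel on its own axis from 0, with black bars at the mean ± SD. The conditions overlap in each panel, and CXCL5 lies at 0 in all 8 samples.

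Receptor genes of the members, through which PC3 cells could sense the signals themselves, were described next, and 1 of them rose. Of 12 receptor genes 5 were tested, 1 was higher in shIER5L and 0 were lower by edgeR's adjusted p, against 2.46% and 1.46% of all genes, with a median log2 fold change of 0.06. With 5 genes, such a count is no result about the list. CXCR1, CXCR2 and ACKR1, the chemokine receptors that bind CXCL8 and its relatives, were at 0 counts in all 8 samples, and CCR2, the receptor of CCL2, had at most 2 counts. IL1R1, the receptor that binds IL1A, had 3 to 12 counts and did not pass the filter, and the decoy receptor IL1R2 had 2 to 6 counts.

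IL1RAP, the signalling partner that IL1R1 and the IL33 receptor need, rose (chr3:190514051-190659750). Its shScramble samples had 25.4, 25.3, 24.2 and 24.2 CPM and its shIER5L samples 30.6, 31.8, 33.5 and 32.7 CPM. Every shIER5L sample was above every shScramble sample. The means were 24.8 ± 0.661 and 32.2 ± 1.23 CPM, with a log2 fold change of 0.38 (SE 0.0660, 95% interval 0.24 to 0.52, edgeR adjusted p = 0.00391), which is below the 0.5 asked of a DEG. The adjusted p stayed under 0.05 in all 18 alternatives run, from 2.34e-05 to 0.0211.

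Per kilobase, the mean shScramble level was 22.9 RPKM for IL6ST, 22.7 for LIFR and 8.26 for IL6R, against 2.15 for IL1RAP, 0.765 for IL11RA and 0.0451 for IL1R1. LIFR, the chain that binds LIF, had 269 ± 12.7 CPM in shScramble and 267 ± 16.6 in shIER5L (log2 fold change -0.01, SE 0.0503, 95% interval -0.11 to 0.10, edgeR adjusted p = 0.967). It was counted without strand over exons shared with LIFR-AS1, which had 51 to 75 counts against 5786 to 6882 for LIFR. IL6R had 53.3 ± 2.76 and 50.8 ± 1.67 CPM (log2 fold change -0.07, edgeR adjusted p = 0.634), and IL11RA had 3.27 ± 0.0821 and 3.41 ± 0.308 CPM (log2 fold change 0.06, edgeR adjusted p = 0.887).

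IL6ST, which encodes gp130, had 218, 198, 210 and 226 CPM in shScramble and 231, 217, 265 and 256 CPM in shIER5L. Only the second shIER5L sample fell within the shScramble range. The means were 213 ± 12.2 and 242 ± 22.3 CPM with a log2 fold change of 0.18 (SE 0.0611, 95% interval 0.05 to 0.31), an unadjusted p of 0.00826 and an edgeR adjusted p of 0.120. The adjusted p was under 0.05 in 3 of 18 alternatives: 0.0226 without a filter on low counts, 0.0487 with a replicate block and 0.0263 without shIER5L replicate 2.

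**Figure D3:**
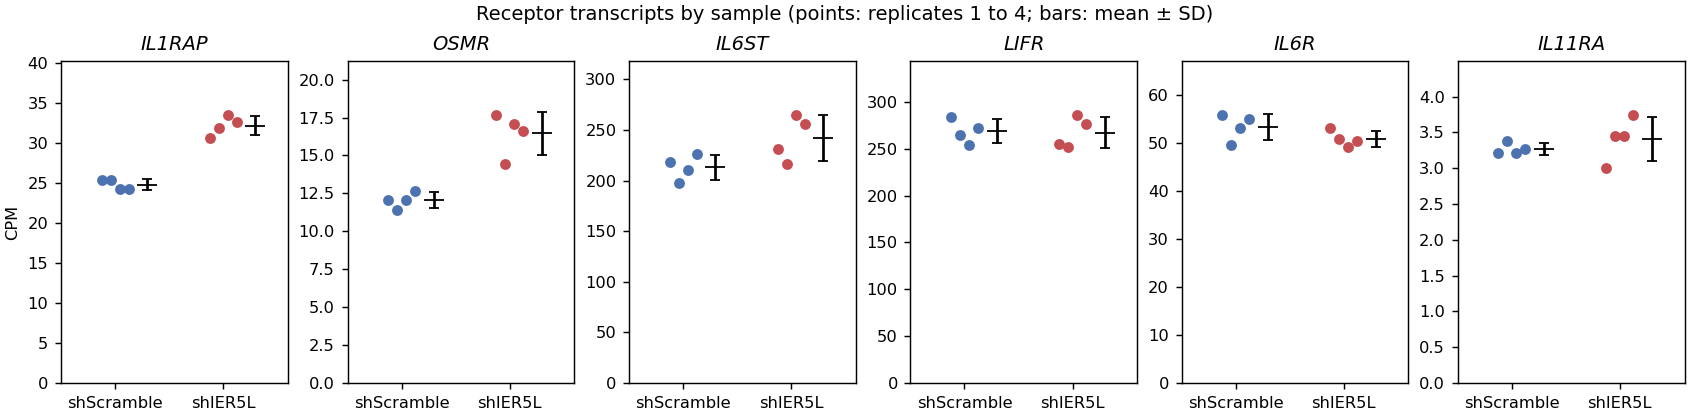
CPM of 6 receptor genes in the 4 shScramble (blue) and 4 shIER5L (red) samples, each panel on its own axis from 0, with black bars at the mean ± SD. IL1RAP and OSMR separate the conditions completely, and IL6ST, LIFR, IL6R and IL11RA overlap.

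Of 16 genes of the gp130 pathway beyond the receptors above, 14 were tested, 1 was higher and 0 were lower, against 2.46% and 1.46% of all genes, and their median was 0.03 on the log2 scale. The gene that rose was OSMR, the oncostatin M receptor chain that also pairs with gp130 (chr5:38845858-38945596). It had 12.1, 11.4, 12.04 and 12.7 CPM in shScramble and 17.7, 14.5, 17.1 and 16.6 CPM in shIER5L. All 4 shIER5L samples were above all 4 shScramble samples, at means of 16.5 ± 1.41 against 12.04 ± 0.535 CPM. The log2 fold change was 0.45 (SE 0.0910, 95% interval 0.26 to 0.64, edgeR adjusted p = 0.0101), below the DEG threshold of 0.5, and the adjusted p was under 0.05 in all 18 alternatives, up to 0.0448. OSMR was counted without strand and shares exonic bases with RICTOR on the opposite strand, a gene with far more counts, 2998 to 3672 per sample. The log2 fold change of RICTOR was 0.11 (edgeR adjusted p = 0.288), and the part of its reads in the OSMR counts was not tested. Oncostatin M itself (OSM) averaged 0.220 CPM in shScramble and was not tested.

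JAK1, a kinase bound to gp130, had a log2 fold change of 0.12 (SE 0.0403, unadjusted p = 0.00924, edgeR adjusted p = 0.126) with no overlap between the conditions. PTPN11, a phosphatase recruited to gp130, was abundant at 550 ± 12.2 and 568 ± 22.4 CPM, with a log2 fold change of 0.05 (edgeR adjusted p = 0.635). SOCS3, the feedback inhibitor that gp130 signals induce, had 22.9 ± 2.46 and 21.4 ± 0.804 CPM (edgeR adjusted p = 0.620). STAT3, the main transcription factor downstream of gp130, had 0 counts in all 8 samples. PC3 is known to lack STAT3, and its neighbours on chromosome 17, looked up after this value was seen, were at 0 or near it as well: STAT5A, CAVIN1, GHDC, HCRT, KCNH4 and KAT2A had 0 counts in all samples, STAT5B at most 2 and RAB5C at most 1. On either side the counts returned, with 375 to 532 in NKIRAS2 (chr17:42011382-42025644) and 182 to 286 in NAGLU (chr17:42536172-42544449).

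**Figure D4:**
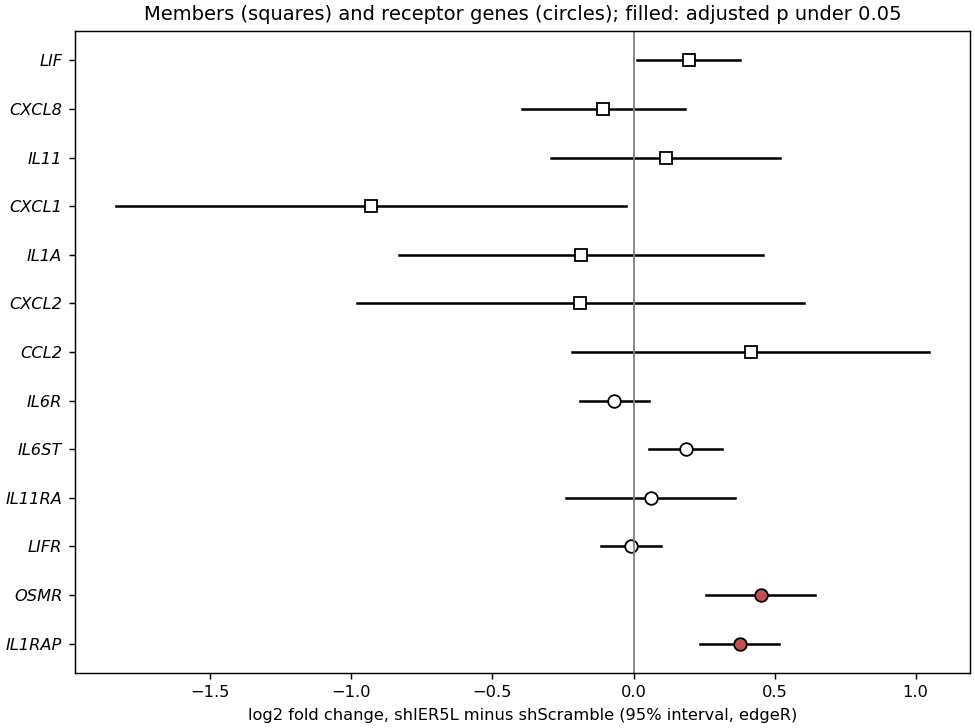
Log2 fold change of shIER5L against shScramble with its 95% interval from edgeR for the 7 tested members (squares) and 6 receptor genes (circles), filled where the adjusted p was under 0.05. The intervals of LIF, CXCL1 and IL6ST lie to one side of 0 without passing the adjusted test, and the filled points are IL1RAP and OSMR.

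Lists of genes that act between the receptors and the cytokine promoters or on the cytokine mRNAs held no gene called by edgeR's quasi-likelihood test. Of 26 NF-kB subunits, inhibitors and kinases 25 were tested, and edgeR called 0, with 3 at an unadjusted p under 0.05 and a median log2 fold change of 0.05. Those 3 were MAP3K7, the TAK1 kinase (98.1 ± 3.45 to 87.2 ± 3.21 CPM, log2 fold change -0.17, edgeR adjusted p = 0.0685, no overlap), the inhibitor NFKBIE (-0.36, adjusted p = 0.154) and the kinase IKBKB (-0.22, adjusted p = 0.206). MAP3K7 was called, lower, by DESeq2, with upper quartile or total count scaling and with a filter of at least 1 CPM in 4 samples, while limma voom and the likelihood ratio test called 0 genes of the list. IRAK1 and TNIP2 had the highest RPKM of the list, with log2 fold changes of 0.05 and 0.01 (adjusted p = 0.817 and 0.963). The subunit NFKB1 stood at 87.7 ± 2.78 and 87.9 ± 2.92 CPM and the inhibitor NFKBIA, itself a target of NF-kB, at 51.8 ± 4.80 and 51.1 ± 3.46 CPM.

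Of 20 further NF-kB target genes 10 were tested, and edgeR called 0, with 0 at an unadjusted p under 0.05 and a median log2 fold change of 0.05. The urokinase gene PLAU and EFNA1 were the most abundant per kilobase, with log2 fold changes of -0.02 and -0.14 (adjusted p = 0.852 and 0.486), and the adhesion molecule ICAM1 had 15.6 ± 1.70 and 16.5 ± 2.47 CPM (adjusted p = 0.799). Of 15 decay factors that act on AU-rich elements or cytokine mRNAs 14 were tested, and edgeR called 0, with 1 at an unadjusted p under 0.05 and a median log2 fold change of 0.04. CNOT1, the scaffold of the deadenylase complex, and TIA1 had the highest RPKM among them, with log2 fold changes of 0.00194 and -0.06 (adjusted p = 0.989 and 0.665). ZFP36, the decay factor also called tristetraprolin, did not pass the filter, at 0.464 ± 0.143 and 0.248 ± 0.0612 CPM.

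Of 35 other chemokines and cytokines 16 were tested, and edgeR called 0, with 0 at an unadjusted p under 0.05 and a median log2 fold change of -0.04. IL18 and CCL26 had the highest RPKM of the list, 40.9 ± 1.11 and 18.5 ± 1.42 in shScramble, both above LIF on that scale, with log2 fold changes of 0.07 and -0.06 (adjusted p = 0.544 and 0.840). IL1B, the inflammasome-processed relative of IL1A, had 14.2 ± 1.65 and 13.2 ± 0.889 CPM (adjusted p = 0.710) and TNF had 0 counts in all samples. Limma voom and the likelihood ratio test each called 0 genes among these cytokines, the NF-kB target genes and the decay factors, and DESeq2 called 0 of the 11, 9 and 14 of them to which it gave an adjusted p. Over the 6 lists together 84 genes were tested, 2 were higher, 0 were lower and 9 had an unadjusted p under 0.05, which is 2.38% higher against 2.46% of all genes and 10.7% at that p against 16.5%.

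How the members varied within the conditions could be described for those with enough counts. For the 4 members with a mean of at least 1 CPM (CXCL8, IL1A, IL11 and LIF), deviations from the condition means in log2 CPM, with 0.5 CPM added, were correlated over the 8 samples as a description. Pearson's r was -0.59 between CXCL8 and LIF, 0.60 between IL1A and LIF, 0.47 between CXCL8 and IL11, -0.54 between CXCL8 and IL1A, -0.38 between IL1A and IL11 and 0.08 between IL11 and LIF. The same 8 libraries, with their depth and scaling, stand behind every value. Among 14145 genes, those closest to the mean deviation of the 4 members were ENSG00000255508 (r = 0.992), ZNF347 (0.975), FHIP1B (0.975), LINC00863 (0.971) and FAM86EP (0.965), and those most opposite were SLC25A26 (-0.989) and the ribosomal protein genes RPS20 (-0.972) and RPL21 (-0.964). These are the extremes of 14145 correlations over 8 points each, and 6 of the 8 were picked again with RLE size factors. RPS20 and RPL21 were not picked again, at r = -0.941 and -0.933 with that scaling.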

How the data were processed

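RNA-seq of PC3 cells was analysed in 4 shScramble and 4 shIER5L samples, grouped by the sample labels. The authors deposited raw counts of reads per Ensembl gene. Per the submitters' processing notes and the study's methods, reads were aligned to hg38 with STAR 2.7.5c, duplicates were removed with SAMtools 1.15 and reads were counted with featureCounts 2.0.3. The deposited command sets neither strand nor pair counting. A median of 65.65% of counts from 1 to 20 were even, so independent fragments are fewer than counts. The study names a ribosomal RNA depletion kit and the labels an mRNA kit, both stranded.

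Computed here: filterByExpr (16959 genes kept), TMM scaling and the quasi-likelihood test of edgeR 4.0.16 (R 4.3.3), fitted on condition alone, with p-values adjusted over all genes (Benjamini-Hochberg). SE is the absolute log2 fold change over the square root of F. Symbols were matched for 56948 of 58051 genes by GENCODE v44, and SOD2 of the NF-kB target list was not matched. Named are the 10 members, IER5L, in each list the genes past an adjusted p of 0.05 and the pair with the highest RPKM, and the genes most like and unlike the members. A gene that this rule names is not reported here. Other genes and the STAT3 neighbours were named after their values were seen. Members and lists were chosen with earlier results of these data known. As alternatives, scaling by RLE, by the upper quartile or by total counts, 2 other filters, DESeq2 1.42.0, limma 3.58.1 voom, the likelihood ratio test, counts halved, a replicate block and the removal of each sample in turn were tried. The fits were tested on simulated counts.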

Additional observations from a re-analysis of the deposited data

Results flagged for a closer look

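CXCL2 in shIER5L replicate 1 had 0.926 CPM, while the other 3 shIER5L samples had 0.420 to 0.499 CPM, a gap of 0.844 of the group's range, above the Dixon 95% critical value for 4 samples. This was the 1 group with a value that far from the rest among 32 groups examined (16 genes in each condition), and chance gives about 1 in 20 groups. The value rests on 21 counts against 10 to 12.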

How the results depend on the processing

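Members past an adjusted p of 0.05 numbered 0 under each alternative run, and so did members called DEGs; CXCL1, CXCL2 and CCL2 were left untested by the filter of at least 1 CPM, CXCL1 and CXCL2 also with counts halved, and DESeq2 gave no adjusted p to CXCL1, CXCL2, CCL2 and IL1A. Leaving out 1 sample moved the totals over all genes: those past an adjusted p of 0.05, 666 with all samples, ran from 305 to 756, with 305 without shScramble replicate 3, 341 without shScramble replicate 2, 358 without shIER5L replicate 3 and 434 without shScramble replicate 4. DEGs, 134 with all samples, ran from 86 (without shScramble replicate 3) to 135. LIF ranged from 0.12 to 0.27 in log2 fold change, with adjusted p from 0.0569 to 0.522, CXCL8 from -0.29 to -0.01 (0.181 to 0.981) and CXCL1 from -1.19 to -0.63 (0.133 to 0.619). Among the fits without 1 sample, CXCL2 ran from -0.51 (without shIER5L replicate 1) to -0.06 (without shIER5L replicate 2), IL1A from -0.43 (without shIER5L replicate 2) to -0.02 (without shScramble replicate 2) and CCL2 from 0.27 (without shScramble replicate 3) to 0.55. The sign of IL11 changed in 1 of 18 alternatives and that of LIFR in 3, both uncalled in each. IER5L kept its direction in all 18, from -1.24 to -0.90, with an adjusted p of at least 0.05 in 3. Members with a hairpin word in the 3′ untranslated region numbered 0 for the inner words and 2 for the seed word, which was added after the data were seen. The causes were not tested. The DESeq2 and no-filter fits called 947 and 903 genes.

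Whether replicate numbers pair the samples was not settled by these values. Same-numbered samples correlated in their deviations at -0.14, 0.20, -0.14 and 0.29, and 2 of 4 shScramble samples correlated best with their own number. With the replicate block, 655 genes were past an adjusted p of 0.05, 592 of them shared with the 666, 137 were DEGs and 0 members were called. Depth limits the low members: the 95% intervals of the ratio ran from 0.280 to 0.981 for CXCL1, 0.507 to 1.52 for CXCL2, 0.861 to 2.07 for CCL2 and 0.562 to 1.38 for IL1A.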
